A study of Arabidopsis thaliana with 32 samples.

Results

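The 54 probe sets described here were those whose signal stood high 1 h after heated *Arabidopsis* seedlings had been returned to 25 °C. A probe set is a group of short probes on the array that together measure 1 transcript. The members were chosen by their measured values, out of 22746 probe sets for genes. In shoots or in roots, the 1 h recovery mean of log2(signal + 11) had to lie at least 1.5 above both the mean after 3 h of heat and the mean after 21 h of recovery, and the mean signal at 1 h of recovery had to reach 100. Symbols starting HSP, COR, GSTU or UGT were left out, which removed only COR15B. The rule was met in shoots by 45 probe sets and in roots by 10, with 267461_at meeting it in both. Of the 54, 24 had 1 named gene (21 chosen in shoots, 3 in roots) and 30 had none in the annotation used here, so these are given by probe set number.

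The plants were seedlings of the Col-0 accession, with no transgene or mutation named in the labels, grown at 24 °C with 16 h of light a day on Murashige and Skoog medium. On day 16, 3 h into the light, they were moved to 38 °C. Shoots and roots were harvested after 0.25, 0.5, 1 and 3 h of heat, and 1, 3, 9 and 21 h after a 3 h heat treatment had ended. Each of the 16 groups had 2 arrays, and every plant had been heated, with no unheated control here. The harvest at 21 h of recovery fell 3 h into the light, the hour at which the heat had begun, whereas the 1 h, 3 h and 9 h recovery harvests fell 7, 9 and 15 h into it. Recovery and time of day therefore cannot be told apart in any comparison of these times.

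When plants return from heat, the heat shock factors that drive chaperone genes are shut off again and general gene expression and protein synthesis resume. Making new ribosomes is a large part of that work: RNA polymerase I transcribes the ribosomal RNA precursor in the nucleolus, and assembly factors cut, fold and load it with ribosomal proteins. Mitochondria and plastids keep ribosomes of their own, and pentatricopeptide repeat proteins process the RNA of these organelles. In leaves, starch made during the day is broken down at night, a cycle set by the circadian clock, and many leaf transcripts move with the hour even without stress. These points are background on the members and their surroundings and were not measured here.

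On the 32 arrays the median signal was 31.6 to 49.0, and replicate arrays correlated at 0.984 to 0.993 on the log2 scale. The summed signal of 29 markers of green tissue (photosystem subunits, antenna proteins, rubisco activase) was 53508 to 102249 in shoots and 4505 to 9141 in roots, and 28 of the 29 did not overlap between the tissues. Of 4 root markers, only the β-glucosidase PYK10 did not overlap, with 167 to 892 in shoots and 1837 to 3774 in roots. The root hair expansins EXPA7 and EXPA18 were low in both tissues and overlapped. RTH overlapped too, with 101 to 156 in shoots and 142 to 215 in roots. The labels do not say whether the 2 arrays of a group came from separate cultures, so p-values measure the spread between these arrays only, which may be technical. Signal from 25S ribosomal RNA in shoots averaged 146, 1916 and 2405 at 0.25, 1 and 3 h of heat. It averaged 203, 1289 and 104 at 1, 3 and 21 h of recovery, while the 9 h arrays gave 1270 and 88.6. In roots it averaged 722, 2322, 3080, 840, 2227 and 456 at the same times, with 425 at 9 h. The ratio of 3′ to 5′ actin signal was taken as a check of RNA quality. In shoots it averaged 13.7 after 3 h of heat, 7.23 at 1 h and 5.39 at 21 h of recovery. In roots these values were 19.4, 10.0 and 12.5. Shoot arrays differed in it after 1 h of heat (14.9 and 4.72) and at 9 h of recovery (9.28 and 3.88). The part of both measures in the results was not tested.

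In shoots, the 45 probe sets chosen there had, by their medians, low signal throughout the heat and high signal for at least 9 h after it. The medians of their mean signals were 49.8, 47.0, 39.4 and 50.4 after 0.25, 0.5, 1 and 3 h of heat, and 282, 276, 189 and 41.1 at 1, 3, 9 and 21 h of recovery. For the 10 chosen in roots, the medians in roots were 42.4, 44.5, 32.8 and 59.4 in heat, and 249, 178, 173 and 46.1 in recovery. The rule fixed the height at 1 h of recovery against 3 h of heat and 21 h of recovery, and left the other 5 times free. Against 3 h of heat the shoot members stood higher by a median of 1.92 (1.52 to 4.02) on the log2 scale, and against 21 h of recovery by 2.10 (1.51 to 5.20). For the root members these values were 1.87 (1.53 to 2.23) and 1.78 (1.55 to 3.68). They describe the choice and carry no test.

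**Figure D1:**
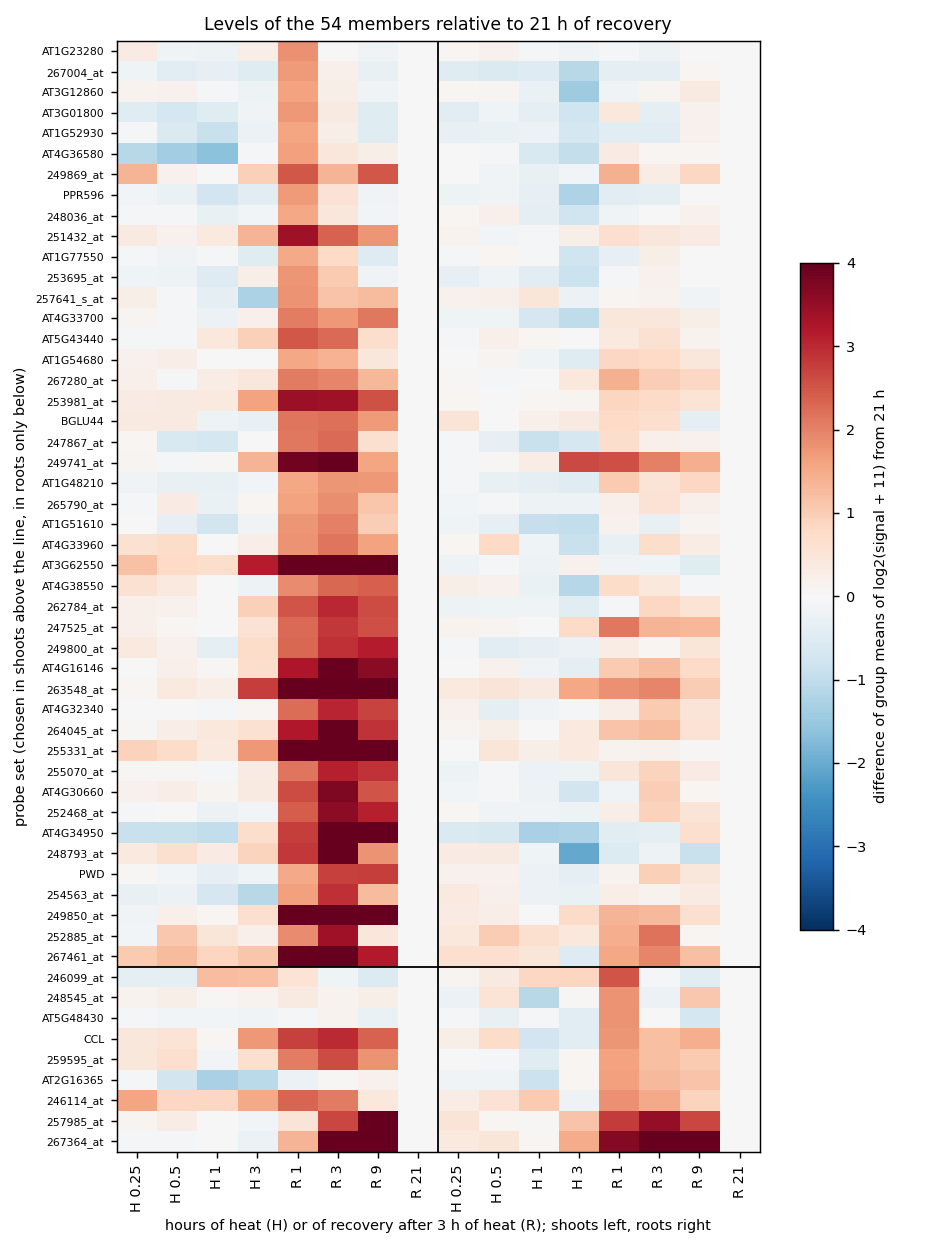
Difference of each group's mean log2(signal + 11) from the 21 h recovery mean of the same tissue (colour scale, cut at 4 either way), for the 54 members (rows) at 8 times in shoots (left) and roots (right). The 45 rows above the line were chosen in shoots, and most stay dark at 3 h and 9 h of recovery, while those at the top are darkest at 1 h.

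The data go against calling the whole set a peak at 1 h of recovery. Over the 8 times in shoots, the highest mean fell at 1 h of recovery for 17 of the 45 shoot members, at 3 h for 23 and at 9 h for 5. From 1 h to 3 h of recovery, 10 of the 45 were lower by at least 1 on the log2 scale, 9 were higher by at least 1 and 26 moved by less, with a median of 0.24 (−1.86 to 1.87). Of the 10 root members, 7 were highest in roots at 1 h of recovery, 2 at 3 h and 1 at 9 h. The set is therefore called genes raised at 1 h of recovery below. Its brief members had lost much of the rise by 3 h of recovery, while its lasting members had not, though some had by 9 h. The brief and the lasting members are described in turn.

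The brief members in shoots are given first. For members known only by a locus number, the protein family given here is background knowledge of *Arabidopsis*. AT1G52930, a Brix domain protein of ribosomal RNA processing, had 192 and 171 after 0.25 h of heat, 87.8 and 113 after 1 h and 156 and 167 after 3 h, then 568 and 619 at 1 h of recovery, 225 and 231 at 3 h, 126 and 142 at 9 h, then 197 and 189 at 21 h. Both arrays at 1 h of recovery lay above all other shoot arrays, and by 3 h most of the rise was gone. AT1G23280, a MAK16-type assembly factor, had 56.3 and 52.1 after 0.25 h and 51.8 and 48.9 after 3 h of heat, 163 and 187 at 1 h of recovery, 48.7 and 32.4 at 3 h and 44.1 and 37.6 at 21 h. AT3G12860, related to the nucleolar protein NOP56, had 40.2 and 30.7 after 0.25 h and 29.4 and 21.0 after 3 h of heat, then 107 and 127, 33.3 and 42.2, 29.0 and 24.1, and 39.7 and 22.9 at 1, 3, 9 and 21 h of recovery. In these 3 genes, the 3 h recovery arrays lay far below the 1 h arrays.

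AT3G01800, which encodes a ribosome recycling factor, a protein that frees bacterial-type ribosomes after translation, had 17.9 and 20.7 after 0.25 h and 26.9 and 28.9 after 3 h of heat, 125 and 133 at 1 h of recovery, 35.1 and 52.2 at 3 h, 15.1 and 23.8 at 9 h, then 24.7 and 39.6 at 21 h. PPR596, a pentatricopeptide repeat protein of mitochondria, had 84.9 and 77.3 after 0.25 h and 63.9 and 63.0 after 3 h of heat, then 296 and 330, 132 and 142, 83.8 and 75.7, and 80.3 and 97.9 at 1, 3, 9 and 21 h of recovery. Both returned to the range of the heat arrays by 9 h. AT1G77550, a tubulin-tyrosine ligase-like protein, had 24.7 and 30.5 after 3 h of heat, 135 and 149 at 1 h of recovery, 68.4 and 95.2 at 3 h and 28.5 and 23.5 at 9 h. AT4G36580, an AAA-type ATPase, had 25.4 and 25.4 after 3 h of heat, 101 and 115 at 1 h of recovery and 37.0 and 46.6 at 3 h. After 0.25 h of heat AT4G36580 had only 6.73 and 7.31, so that even its 3 h recovery arrays lay above the early heat.

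Among unnamed probe sets, 267004_at and 248036_at had this brief form. For example, 267004_at had 75.2 and 80.2 after 0.25 h and 56.1 and 63.1 after 3 h of heat, 279 and 342 at 1 h of recovery, 96.9 and 112 at 3 h, 69.3 and 70.4 at 9 h, then 86.4 and 90.2 at 21 h. 251432_at was highest at 1 h too but stayed above its early heat for longer, with 22.3 and 30.1 after 0.25 h and 61.5 and 63.4 after 3 h of heat, then 267 and 310, 124 and 149, 96.1 and 79.2, and 18.9 and 16.4 at 1, 3, 9 and 21 h of recovery. 249869_at behaved otherwise: it had 95.9 and 83.7 after 3 h of heat, 274 and 289 at 1 h of recovery, 131 and 112 at 3 h, and again 260 and 294 at 9 h. Its 1 h and 9 h recovery arrays overlapped, with a dip between them.

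**Figure D2:**
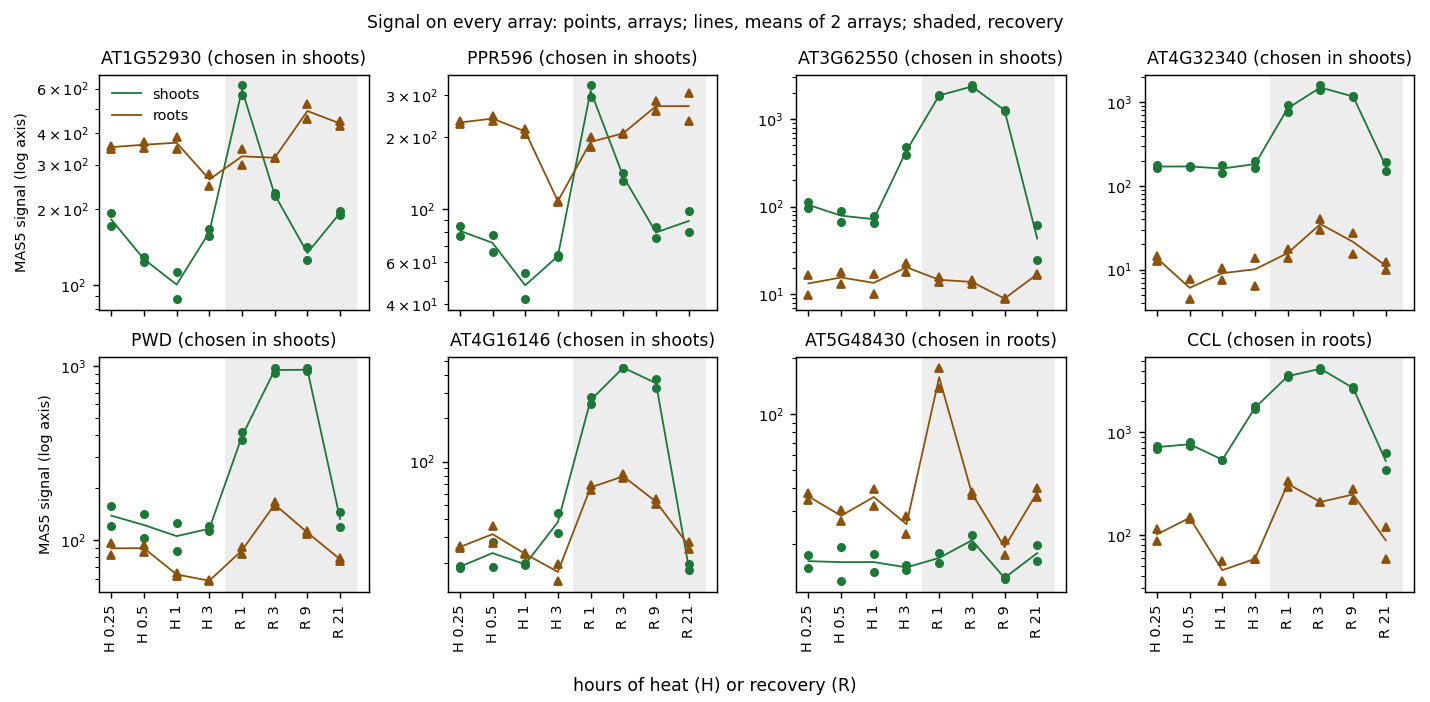
MAS5 signal (log axis) of 8 members on every array, with shoots as circles and roots as triangles, against hours of heat (H) or recovery (R), recovery being shaded; lines join means of 2 arrays. AT1G52930 and PPR596 are highest in shoots at 1 h of recovery and lower by 3 h, AT3G62550, AT4G32340, PWD and AT4G16146 stay up to 9 h, AT5G48430 rises at 1 h in roots alone, and CCL stays up in both tissues.

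Among the lasting members in shoots was PWD, a phosphoglucan water dikinase that phosphorylates starch and so prepares it for breakdown. PWD had 120 and 156 after 0.25 h of heat and 112 and 120 after 3 h. It then had 416 and 373 at 1 h of recovery, 914 and 977 at 3 h, 972 and 929 at 9 h, then 119 and 145 at 21 h. Its level at 1 h of recovery was less than its level at 3 h and 9 h, and its 3 h and 9 h arrays overlapped. BGLU44, a β-glucosidase, had 305 and 270 after 0.25 h and 182 and 178 after 3 h of heat, then 1013 and 1003, 1164 and 956, 785 and 717, and 213 and 230 at 1, 3, 9 and 21 h of recovery. AT4G34950, a membrane transporter of the major facilitator superfamily, had 4.30 and 8.0 after 0.25 h and 41.7 and 38.2 after 3 h of heat, then 227 and 177, 426 and 545, 603 and 459, and 16.8 and 24.3 in recovery. It was near the bottom of the signal range until 3 h of heat.

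AT3G62550, a protein with a universal stress protein fold, had 96.9 and 113 after 0.25 h, 65.2 and 78.8 after 1 h and 393 and 478 after 3 h of heat. It reached 1866 and 1848 at 1 h of recovery, 2267 and 2430 at 3 h, and 1250 and 1271 at 9 h, and stood at 62.3 and 24.4 at 21 h. It was already well above its early heat level after 3 h at 38 °C. AT4G30660, of a small membrane protein family known for cold and salt responses, had 56.0 and 69.0 after 0.25 h and 79.5 and 65.4 after 3 h of heat, then 336 and 442, 863 and 851, 377 and 345, and 57.1 and 51.9 in recovery. AT4G16146 had 19.0 and 18.4 after 0.25 h and 31.9 and 44.4 after 3 h of heat, then 251 and 283, 448 and 449, 375 and 324, and 19.6 and 17.9. All 6 arrays from 1 h to 9 h of recovery lay above all other shoot arrays in AT4G30660 and AT4G16146.

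AT4G32340, a protein with tetratricopeptide repeats, had 165 and 200 after 3 h of heat, 758 and 934 at 1 h of recovery, 1406 and 1595 at 3 h, 1183 and 1156 at 9 h, then 194 and 150 at 21 h. AT5G43440, of the 2-oxoglutarate-dependent oxygenases, had 41.2 and 41.3 after 0.25 h and 94.5 and 98.8 after 3 h of heat, 270 and 334 at 1 h of recovery, 226 and 287 at 3 h and 83.7 and 72.5 at 9 h. It had left its high level by 9 h, whereas AT4G33700 had 153 and 223, 146 and 148, and 186 and 202 at 1, 3 and 9 h of recovery, against 41.0 and 45.6 after 3 h of heat. AT1G51610, of the cation efflux family, had 155 and 180, 195 and 203, and 87.6 and 95.0 at these recovery times, against 39.8 and 32.5 after 3 h of heat. The protein kinase AT1G48210 had 142 and 134, 167 and 153, and 139 and 174, against 46.2 and 26.9 after 3 h of heat. AT4G38550, AT4G33960 and AT1G54680 had 109 to 204 on the arrays of these times, apart from AT1G54680 at 9 h, with 62.5 and 62.3.

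Of the unnamed probe sets, 263548_at had 474 and 635 after 3 h of heat, 3099 and 2671 at 1 h of recovery, 4883 and 4922 at 3 h, 1895 and 1453 at 9 h, then 64.0 and 77.8 at 21 h. The widest difference from 3 h of heat was that of 249850_at, with 9.99 and 17.4 after 3 h of heat, 443 and 334 at 1 h of recovery, 1010 and 1033 at 3 h, 824 and 767 at 9 h, then 4.16 and 4.84 at 21 h. Neither overlapped between the raised and the low times.

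To ask whether the raised level extended to times the choice had not used, 3 h of recovery was compared with 0.25 h of heat. A probe set passed where limma's adjusted p-value was below 0.05 and the log2 difference was at least 1 in size. In shoots 39 of the 54 members were higher and 0 were lower, against 4.85% and 3.86% of the 16782 probe sets tested. Of the 45 shoot members 35 were higher, with a median of 2.21, against 0.05 over all probe sets. The rule had asked these 45 for a high level in shoots at 1 h of recovery, so the counts lean upward by the choice. At 1 h of recovery each of the 45 already stood at least 1.12 above 0.25 h of heat. The harvests compared here fell 9 and 3.25 h into the light. AT3G62550 was higher by 4.35 ± 0.21 SE (adjusted p = 2.06e-14), AT4G34950 by 4.85 ± 0.28, AT4G16146 by 3.95 ± 0.14, AT4G30660 by 3.57 ± 0.14, AT4G32340 by 3.06 ± 0.18 and PWD by 2.69 ± 0.14. BGLU44 (1.84 ± 0.13), AT5G43440 (2.34 ± 0.17) and AT4G36580 (1.55 ± 0.16) also passed. The call on AT4G36580 was lost with a larger added constant (0.75), as was that on AT1G54680 (0.88).

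All 23 shoot members that were highest at 3 h of recovery and all 5 highest at 9 h passed this comparison, as did 7 of the 17 highest at 1 h. The other 10 of the 17 did not pass. They were AT1G52930 (0.31 ± 0.11), AT1G23280 (−0.36 ± 0.17), AT3G12860 (0.07 ± 0.21), AT3G01800 (0.84 ± 0.19), PPR596 (0.68 ± 0.12), AT1G77550 (0.84 ± 0.16), 248036_at, 249869_at, 257641_s_at and 267004_at. These subgroups were formed from the means over the same 8 times, 3 h of recovery included, so the split is a description.

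**Figure D3:**
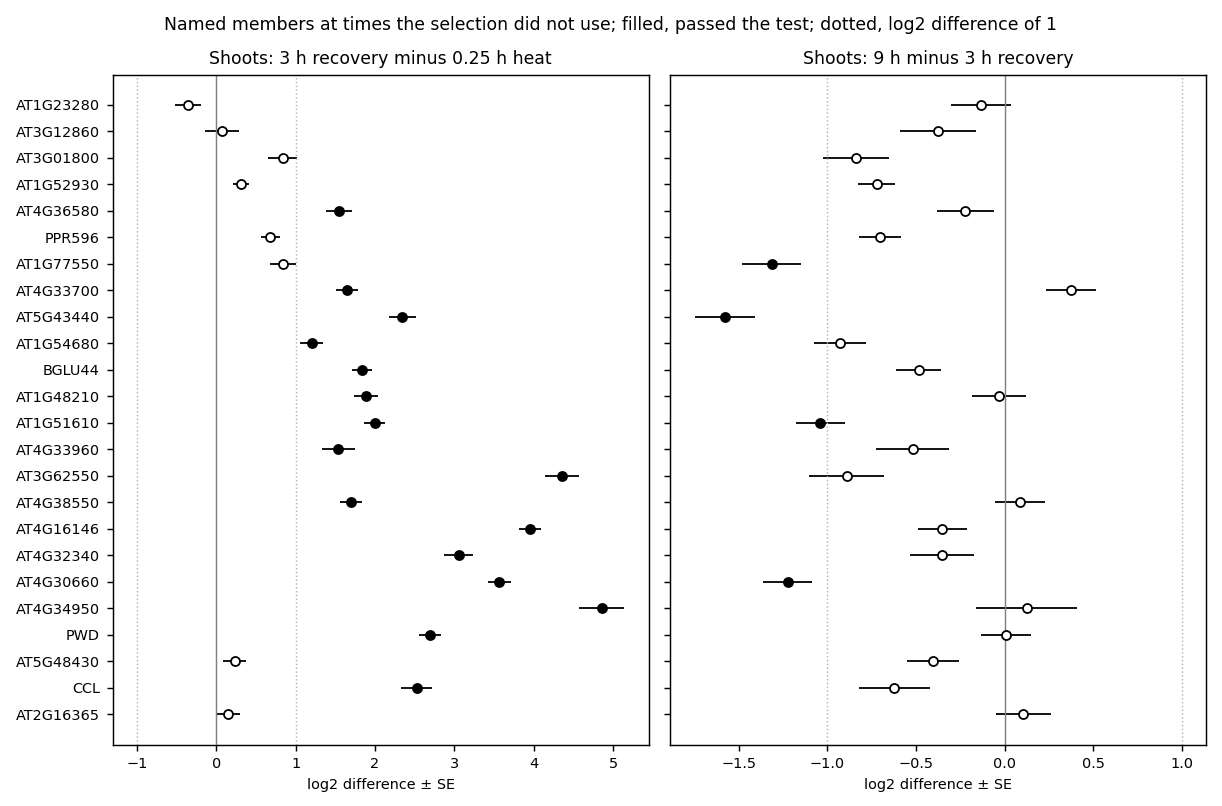
Log2 differences ± SE in shoots for the 24 named members at times the choice did not use: 3 h of recovery minus 0.25 h of heat (left) and 9 h minus 3 h of recovery (right); filled points passed the test and dotted lines mark a log2 difference of 1. On the left the points run from −0.36 (AT1G23280) to 4.85 (AT4G34950), and on the right 4 filled points lie below −1.

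Between 3 h and 9 h of recovery in shoots, 2 members were higher at 9 h and 14 were lower, against 2.99% and 2.54% of all probe sets. The rule had asked 45 of the 54 members for a fall by 21 h of recovery in shoots, so these counts lean downward by the choice. The harvests compared here fell 9 and 15 h into the light. Among the named members, AT5G43440 was lower at 9 h by 1.58 ± 0.17 SE (log2 difference −1.58, adjusted p = 9.05e-08), AT1G77550 by 1.31 ± 0.16 (−1.31), AT4G30660 by 1.22 ± 0.14 (−1.22) and AT1G51610 by 1.04 ± 0.14 (−1.04). The last of these passed by little: it was −0.99 without the first 9 h shoot array. The deepest differences were those of unnamed probe sets, −3.05 for 267461_at, −2.94 for 252885_at and −2.47 for 249741_at. The 2 that were higher at 9 h were 257985_at (1.48 ± 0.18), chosen in roots, and 249869_at (1.12 ± 0.15). PWD (0.01 ± 0.14), AT1G48210 (−0.03 ± 0.15), AT4G38550 (0.09 ± 0.14) and AT4G34950 (0.12 ± 0.28) lay close to 0. The 25S rRNA signal and the actin ratio differed between the 9 h shoot arrays, as given above.

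Within the first hour of heat, the members' counts were close to the shares of all probe sets. In shoots, 1 h against 0.25 h of heat gave 1 member higher and 2 lower, against 3.10% and 2.81% of all probe sets. These were 246099_at (1.62 ± 0.37), 249869_at (−1.38 ± 0.15) and AT2G16365 (−1.22 ± 0.15, or −0.95 without the first 1 h shoot array). For 246099_at the 1 h shoot arrays disagreed, with 191 and 40.7, against 26.5 and 18.6 after 0.25 h. AT1G52930 (−0.80 ± 0.11), AT1G51610 (−0.74 ± 0.14), PPR596 (−0.65 ± 0.12) and BGLU44 (−0.56 ± 0.13) were below the size needed. In roots, 0 members were higher and CCL alone was lower (2.58% and 1.74% of all probe sets), by −1.01 ± 0.20. Without the first 0.25 h root array that value was −0.84, and without the first 1 h root array −0.75, so this call rested on single arrays.

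The shoot members were then followed in roots, whose values had chosen only 267461_at among them. Their medians of mean signal in roots were 89.5, 89.8, 73.2 and 60.9 after 0.25, 0.5, 1 and 3 h of heat. In recovery they were 128, 139, 115 and 85.6 at 1, 3, 9 and 21 h, so 3 h of heat was the low point. At 1 h of recovery against 3 h of heat, 15 of the 44 chosen in shoots alone were higher and 0 were lower, against 4.81% and 4.17% of all probe sets, with a median of 0.68 against 0.15 over all probe sets. At 1 h against 21 h of recovery, 10 of the 44 were higher and 0 lower (2.67% and 3.56% of all probe sets), with medians of 0.28 and 0.02. Both differences passed for 6 of the 44. The share of all probe sets passing both was not counted, and both comparisons used the same 1 h recovery arrays, so this number is a description. A different scaling, to the 75th percentile, moved the median of all probe sets in this first comparison by −0.13, and by −0.12 in shoots.

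AT4G38550, a phospholipase-like protein whose probe set is of the type that can match more than 1 transcript, had 264 and 247 in roots at 1 h of recovery, against 59.3 and 62.5 after 3 h of heat and 150 and 145 at 21 h of recovery. It was higher by 1.89 ± 0.14 SE than after heat (adjusted p = 8.71e-11) and by 0.75 ± 0.14 than at 21 h, which did not reach the size needed. AT1G48210 had 170 and 197 in roots at 1 h of recovery, against 50.4 and 63.9 after 3 h of heat and 87.6 and 79.5 at 21 h, with differences of 1.52 ± 0.15 (adjusted p = 1.73e-08) and 1.04 ± 0.15. AT4G16146 had 63.3 and 69.3, against 14.8 and 19.7 and against 24.7 and 27.9, with differences of 1.46 ± 0.14 (adjusted p = 6.09e-09) and 1.05 ± 0.14. In both genes the arrays did not overlap, but the difference from 21 h dropped below 1 without single arrays, to 0.94 in AT1G48210 and 0.99 in AT4G16146. AT4G33700 (1.47 ± 0.14), AT1G54680 (1.33 ± 0.15), AT4G36580 (1.28 ± 0.16) and AT1G51610 (1.18 ± 0.14) were higher against 3 h of heat alone. Against 0.25 h of heat, AT4G33700, AT4G36580, AT1G51610 and AT4G38550 were higher in roots at 1 h of recovery by 0.64, 0.35, 0.35 and 0.53. For AT4G16146 this was 1.08, and none of these was tested.

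Of the other brief shoot members, AT3G12860 (1.28 ± 0.21) and AT3G01800 (1.22 ± 0.19) were also higher in roots at 1 h of recovery than after 3 h of heat. AT3G12860 had 80.0 and 78.8 in roots at 1 h of recovery, against 27.1 and 25.5 after 3 h of heat and 86.1 and 90.4 at 21 h of recovery. Its root signal after 3 h of heat was the low point, and after 0.25 h it had been 94.2 and 93.8. PPR596 in roots had 182 and 200 at 1 h of recovery, against 108 and 108 after 3 h of heat and 233 and 307 at 21 h, with differences of 0.76 ± 0.12 and −0.47 ± 0.12. AT1G52930 had 347 and 300 in roots, against 248 and 276 and against 426 and 447, with differences of 0.29 ± 0.11 and −0.42 ± 0.11, and AT1G23280 had 88.6 and 77.6, against 69.7 and 83.7 and against 75.5 and 95.8. For these 3 genes, neither root difference passed.

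Of the lasting shoot members, BGLU44 (0.44 ± 0.13 against 3 h of heat), PWD (0.50 ± 0.14), AT4G32340 (0.36 ± 0.18), AT5G43440 (0.36 ± 0.17) and AT3G62550 (−0.29 ± 0.21) did not pass in roots. In 14 of the 44, no group mean in roots reached 100. AT3G62550 had 8.81 to 22.8 on all 16 root arrays, near the bottom of the signal range.

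**Figure D4:**
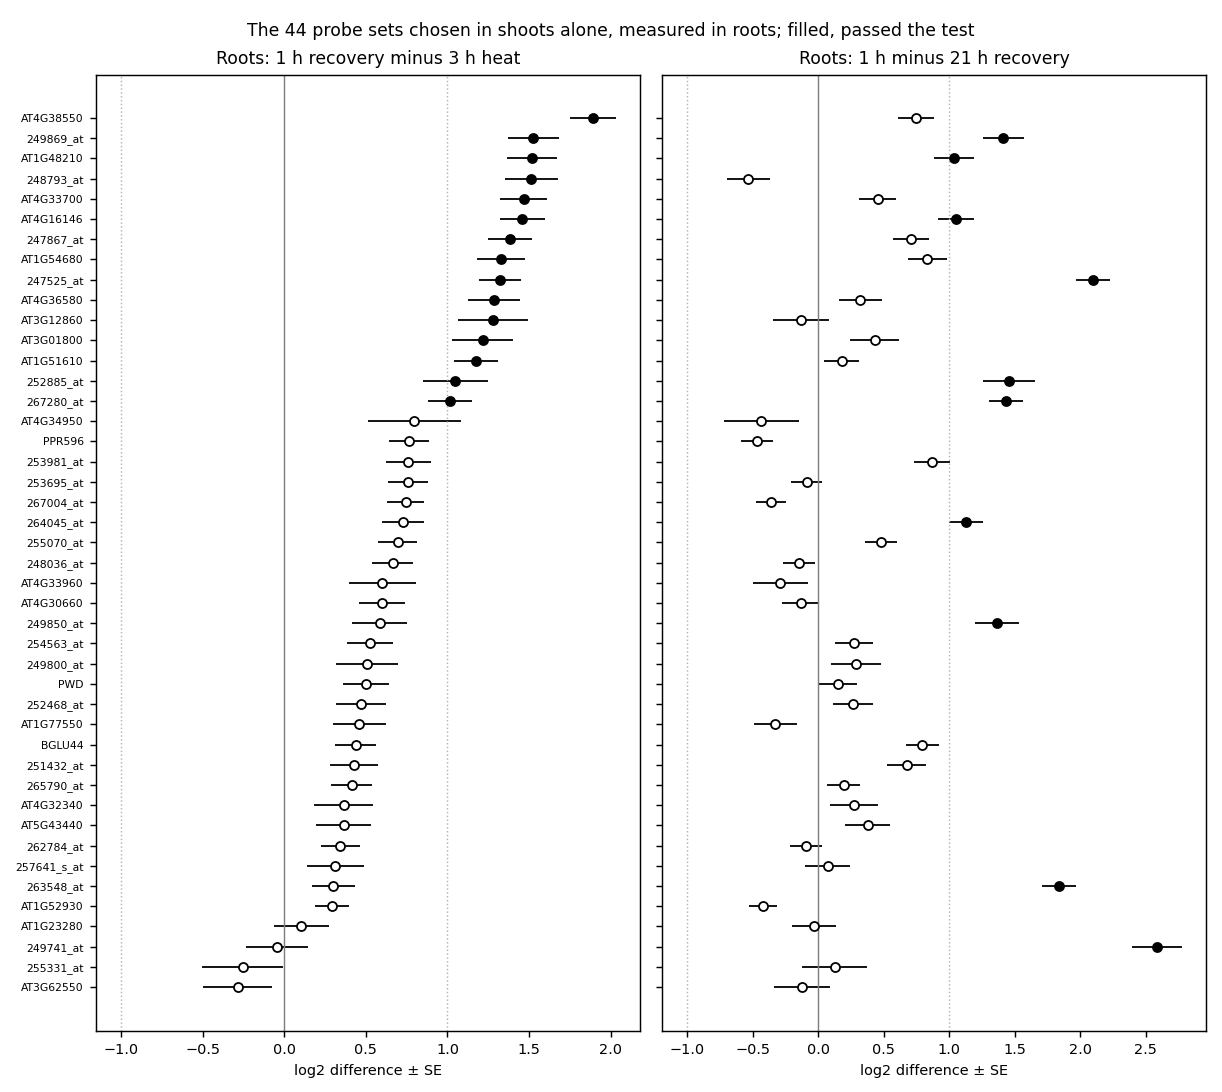
Log2 differences ± SE in roots for the 44 probe sets chosen in shoots alone: 1 h of recovery minus 3 h of heat (left, which sets the order of rows) and 1 h minus 21 h of recovery (right); filled points passed the test and dotted lines mark a log2 difference of 1. On the left 15 and on the right 10 are filled, all to the right of 0.

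At the times that neither part of the rule used, 15 of the 54 members were higher in roots at 3 h of recovery than after 0.25 h of heat and 0 were lower, against 1.21% and 1.98% of all probe sets. They comprised 10 of the 45 shoot members and 6 of the 10 root members, 267461_at being counted in both. The rule had asked the 10 root members for a high level in roots at 1 h of recovery. Their count therefore leans upward by the choice. AT4G16146 had 76.5 and 81.7 at 3 h of recovery, against 25.9 and 25.3 after 0.25 h of heat (1.30 ± 0.14, adjusted p = 2.01e-07). AT4G30660 had 388 and 325, against 176 and 146 (1.10 ± 0.14), a call that dropped to 0.97 without either the second 0.25 h array or the first 3 h recovery array. Between 3 h and 9 h of recovery in roots, 2 members were higher and 2 lower at 9 h (1.28% and 2.17% of all probe sets). They were 248545_at (1.31 ± 0.22), AT4G34950 (1.01 ± 0.28), BGLU44 (−1.04 ± 0.13) and 252885_at (−2.09 ± 0.20). For the 10 root members the rule asked for a fall by 21 h of recovery in roots, so this comparison leans by the choice too. Without single arrays AT4G34950 dropped to 0.76 and BGLU44 to −0.96.

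The root members gave 3 named genes. AT5G48430, an aspartyl protease, was brief in roots: it had 34.5 and 37.8 after 0.25 h and 22.7 and 28.5 after 3 h of heat, 138 and 178 at 1 h of recovery, 36.9 and 38.2 at 3 h, 17.5 and 21.0 at 9 h, then 35.8 and 40 at 21 h. In shoots it stayed between 12.6 and 22.3 on all arrays. The unnamed 246099_at was as brief, with 65.4 and 56.5 after 3 h of heat, 253 and 183 at 1 h of recovery and 27.7 and 25.0 at 3 h in roots. 248545_at had 71.6 and 83.0 after 3 h of heat, 267 and 292 at 1 h, 64.1 and 57.9 at 3 h, then 172 and 162 at 9 h of recovery in roots, and 6.03 or less on every shoot array.

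CCL, whose transcript stability is under clock control, had 114 and 87.9 after 0.25 h, 35.0 and 55.3 after 1 h and 58.7 and 58.0 after 3 h of heat in roots. It then had 292 and 336, 208 and 210, 277 and 218, and 119 and 57.9 at 1, 3, 9 and 21 h of recovery. Shoots carried far more: 691 and 741 after 0.25 h and 1687 and 1786 after 3 h of heat, then 3458 and 3589, 4062 and 4277, 2771 and 2636, and 625 and 424 in recovery. In shoots, where it was not chosen, it was higher at 1 h than at 21 h of recovery by 2.75 ± 0.20 SE (adjusted p = 3.46e-11). Against 3 h of heat it was higher by 1.02 ± 0.20, which dropped to 0.98 without the first 3 h heat array and to 0.99 without the second 1 h recovery array. AT2G16365 had 190 and 193 in roots at 1 h of recovery, against 55.8 and 60.4 after 3 h of heat and 59.5 and 49.2 at 21 h. In shoots its 1 h recovery arrays, 123 and 124, lay below those of 21 h, 130 and 163.

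Of the 9 members chosen in roots alone, 3 were higher in shoots at 1 h of recovery than after 3 h of heat and 0 were lower, against 6.89% and 4.57% of all probe sets. The 3 were 267364_at (1.59 ± 0.18), 259595_at (1.41 ± 0.14) and CCL. Against 21 h of recovery 4 of the 9 were higher and 0 lower (5.67% and 4.67%), namely these 3 and 246114_at (2.32 ± 0.22). The probe set common to both tissues, 267461_at, was left out of these counts, since the rule used its values in shoots too. It had 945 and 688 in shoots at 1 h of recovery, against 77.7 and 73.1 after 3 h of heat and 35.9 and 22.5 at 21 h, and its highest arrays, 3020 and 2928, came at 3 h. In roots it had 2335 and 2616, against 655 and 517 and against 1156 and 607, with 3391 and 3212 at 3 h. Its root signal after 0.25 h of heat, 1614 and 1138, was already high. 267364_at kept climbing in roots, with 51.7 and 69.5 after 3 h of heat and 278 and 349, 633 and 654, and 814 and 826 at 1, 3 and 9 h of recovery.

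Shoots and roots were set against each other at 3 h of recovery. The rule did not use this time, but it asked 45 of the 54 members for a signal of at least 100 and a rise in shoots 2 h earlier and asked nothing of them in roots, so the counts lean toward shoots by the choice. Of the 54 members 19 were higher in shoots and 2 lower, against 14.9% and 18.0% of all probe sets, and of the 45 shoot members 18 were higher and 1 was lower. AT3G62550 had 2267 and 2430 in shoots and 14.6 and 13.1 in roots, a difference of 6.57 ± 0.21 SE (adjusted p = 3.70e-19). AT4G32340 had 1406 and 1595 in shoots and 29.9 and 40.1 in roots (5.04 ± 0.18), and BGLU44 had 1164 and 956 in shoots and 118 and 117 in roots (3.05 ± 0.13). CCL (4.25 ± 0.20), AT4G34950 (3.80 ± 0.28), AT5G43440 (3.10 ± 0.17), PWD (2.48 ± 0.14) and AT4G16146 (2.35 ± 0.14) were also higher in shoots. The 2 that were lower in shoots were 248545_at (−2.39 ± 0.22) and AT3G12860 (−1.14 ± 0.21), and the second did not hold under quantile normalization (−0.998, just short of the size needed). In whole organs, fewer cells of a type and less RNA per cell cannot be told apart.

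The members' moves from 3 h to 9 h of recovery were also set against each other between the tissues. For 45 of the 54 members the rule asked for a fall by 21 h of recovery in shoots, and for 10 in roots. The counts from 3 h to 9 h therefore also lean by the choice. In an interaction term, shoots minus roots, 1 member had a higher difference in shoots and 13 a lower one, against 3.80% and 3.07% of all probe sets. AT1G52930 had the lowest adjusted p among the named genes: 9 h minus 3 h was −0.72 ± 0.11 in shoots, where it had 126 and 142 at 9 h and 225 and 231 at 3 h, and 0.60 ± 0.11 in roots, where it had 454 and 523 at 9 h and 320 and 319 at 3 h. The interaction was −1.32 ± 0.15 SE (adjusted p = 8.52e-07). AT1G51610 (−1.44 ± 0.19), AT3G01800 (−1.39 ± 0.26), AT5G43440 (−1.10 ± 0.24), PPR596 (−1.06 ± 0.17) and AT1G77550 (−1.05 ± 0.23) had the same sign. Without single arrays AT5G43440 dropped to −0.94, AT1G77550 to −0.84 and PPR596 to just under 1 in size. The 1 member with the opposite sign was 257985_at (2.33 ± 0.26). From 0.25 h to 1 h of heat, 0 members had a higher difference in shoots and 2 a lower one (2.29% and 1.91% of all probe sets), 246114_at (−1.51 ± 0.32) and 249869_at (−1.09 ± 0.22).

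Genes related to the members were taken by their symbols, none of them a member. At 1 h of recovery against 3 h of heat, 6.89% of all probe sets were higher and 4.57% lower in shoots, and 4.81% and 4.17% in roots, and the counts of the lists stand against these shares. A list of RNA polymerase subunits and exosome components, held for its link to ribosome assembly, had 13 genes tested. In shoots at 1 h of recovery, 3 were higher than after 3 h of heat and 0 lower, with a median of 0.76, against 0.14 over all probe sets. NRPA2, the second largest subunit of RNA polymerase I, averaged 338 at 1 h of recovery, against 98.1 after 3 h of heat (1.67 ± 0.11 SE, adjusted p = 9.98e-12), and NRPA1, its largest subunit, averaged 63.8, against 22.0 (1.18 ± 0.15). NRPE7, a subunit of RNA polymerase V, passed as well (1.13 ± 0.17). In roots 0 of the 13 passed in either direction, with a median of 0.16. Among 13 genes of sugar transport and starch, 0 were higher in shoots and SWEET1, a sugar exporter, was lower, averaging 159 at 1 h of recovery and 516 after 3 h of heat (−1.63 ± 0.15).

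Among 13 genes of glucosinolate and sulfur metabolism and of β-glucosidases other than BGLU44, 1 was higher and 1 lower in shoots, GTR1 (1.13 ± 0.14), a glucosinolate transporter, and BGLU16 (−1.23 ± 0.12). In roots 3 were higher and 1 lower, with GTR2 at 1.63 ± 0.13 and GTR1 at 1.10 ± 0.14 among the higher. The shares of all probe sets were 6.89% and 4.57% in shoots and 4.81% and 4.17% in roots. The clock gene GI, the only named gene of the clock list, differed from 3 h of heat by 0.78 in shoots and 0.17 in roots, neither passing. It was higher at 1 h than at 21 h of recovery in both tissues, by 2.60 in shoots and 1.44 in roots. At 3 h of recovery against 0.25 h of heat, GI differed by 2.84 in shoots, which passed, and 0.84 in roots, which did not. At 9 h against 3 h of recovery it differed by −3.04 in shoots and −2.47 in roots, and both passed. The part of the time of day in the members' differences at these times was not tested. Of 10 co-chaperone genes, 1 was higher and 5 were lower in shoots at 1 h of recovery than after 3 h of heat, with a median of −0.94. The shares of all probe sets were 6.89% and 4.57%. Against 21 h of recovery, 5 of the 10 were higher and 0 lower in shoots (5.67% and 4.67% of all probe sets), with a median of 1.01. The 1 that was higher than after heat was Fes1B, averaging 119 after 3 h of heat, 288 at 1 h and 27.2 at 21 h of recovery.

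Position was not used by the rule, whereas the profiles compared below take in the group means that it used. On chromosome 4 lay 8 of the 24, while 14.6% of the 13415 named probe sets lay there; chromosomes 1, 2, 3 and 5 held 7, 1, 5 and 3. Outside the set, the profile over the 16 group means most like the median of the shoot members was that of 247786_at (Pearson r 0.956), followed by AT5G25210 (0.933) and AT4G33490 (0.932). AT4G33490 averaged 109 at 1 h of recovery in shoots, against 50.4 after 3 h of heat and 33.6 at 21 h. For the median of the root members the closest were AT4G33980 (0.919), 259244_at (0.909), AT1G17665 (0.906) and COR27 (0.903), whose symbol the rule would have left out. The 16 means share arrays and hours, and the values are descriptions.

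The edge of the set was narrow. Just inside in shoots lay PWD, whose smaller difference was 1.51, 265790_at (1.52) and AT1G77550 (1.52), and just outside lay AT2G15690 (1.497), RBL (1.48) and 261019_at (1.47). In roots 259595_at (1.53), 267461_at (1.55) and AT2G16365 (1.55) lay just inside, and AT3G15450 (1.495), 249869_at (1.41) and AT2G23910 (1.38) just outside. By signal, AT4G36580 entered with a mean of 108, whereas 254833_s_at (91.9), AT1G07050 (89.5) and AT1G64890 (87.9) did not in shoots, nor AT1G11210 (93.6) and COR27 (67.4) in roots.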

How the data were processed

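Each of the 32 arrays was measured once. The values were the deposited MAS5 signal intensity of 22810 probe sets, made by the authors from the scans, per the submitters' processing notes, which give no version. It is linear, and each array had a 2% trimmed mean of 100.006 to 100.012. It was not normalized again. After 64 control probe sets were left out, 22746 remained, of which 13513 had 1 gene in the platform annotation, 503 several and 8730 none. Names were updated by gene id (13436) or locus (48), and 29 were not matched. Signals were used as log2(signal + 11), which understates differences at low signal. For testing, both arrays of some group had to exceed their own 40th percentile. This left 16782 probe sets, all 54 members among them, and all 54 also passed outside their own 1 h recovery group.

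The tests came from 1 linear model of the 16 groups, made from all arrays in R 4.3.3 by limma 3.58.1 (lmFit, eBayes with trend; 16 residual degrees of freedom, median prior 8.27), with 13 contrasts, Benjamini-Hochberg adjustment within each, and limits of 0.05 on the adjusted p-value and 1 on the log2 difference. The fit was run on simulated data for 1 contrast, with independent noise and changes above the limit added to probe sets of above-median level. That run did not examine low signals or differences close to the limit. Contrasts that chose a member are given without a test, and 267461_at, chosen in both tissues, enters no count of these. Python 3.11.15 with numpy 2.4.6 and pandas 2.3.3 made the tables and matplotlib 3.10.9 the figures. The arrays were grouped by the tissue and time in their titles.

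The members and the gene lists were chosen with earlier results of these data known. Genes were named by a rule: members with 1 gene, by size of their smaller difference and by their largest called differences, with the probe sets next to the limit and those with the most similar profile. Some unnamed probe sets were added after their values were seen. Of the lists, those of RNA polymerases, sugar and starch, glucosinolates, the clock, co-chaperones and tissue markers are given. Replicate numbers were checked for pairing: deviations of same-numbered arrays correlated at −0.19 to 0.16 between groups. No strong pairing showed, but this cannot exclude that same-numbered shoots and roots came from the same plants. The tests treated all arrays as independent. Alternatives were the limits of the rule, the added constant, 2 other scalings, no filter, a replicate block and leaving out each array. Promoter and protein sequences were not used here.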

Additional observations from a re-analysis of the deposited data

Results flagged for a closer look

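Differences that were not alike in shoots and roots were tested with an interaction term (shoots minus roots). From 3 h to 9 h of recovery it passed for 14 of the 54 members, 1 higher in shoots and 13 lower, against 3.80% and 3.07% of all probe sets. From 0.25 h to 1 h of heat it passed for 2, with 0 higher and 2 lower, against 2.29% and 1.91%. For the first of these, the named genes were AT1G51610 (−1.44), AT3G01800 (−1.39), AT1G52930 (−1.32), AT5G43440 (−1.10), PPR596 (−1.06) and AT1G77550 (−1.05). Each moved lower in shoots than in roots. All of these were chosen in shoots, where the rule asked for a fall by 21 h of recovery, so the counts lean that way. The smaller values of AT5G43440, PPR596 and AT1G77550 dropped below 1 in size without single arrays. The 25S ribosomal RNA probe set in shoots had 1270 and 88.6 on the 9 h arrays and averaged 1289 at 3 h, while in roots it averaged 425 at 9 h and 2227 at 3 h. Its part in these differences was not tested. Groups of 2 arrays allow no test for a stray array.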

How the results depend on the processing

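The number of members depended on the limits. It was 54 as given, 116 with a difference of 1.2, 16 with 2, 34 with a signal of 200, 20 with an added constant of 44 and 35 after scaling to the 75th percentile. Of the counts of members passing, those that moved by over 1.5 times did so with the constant of 44: for root members in shoots, 1 h of recovery against heat (3, then 1) and against 21 h (4, then 2), the same in roots for shoot members (15, then 8, and 10, then 6), heat of 1 h against 0.25 h in shoots (3, then 1) and roots (1, then 0), recovery of 3 h against early heat in roots (15, then 9), 9 h against 3 h of recovery in roots (4, then 2), and the interactions in heat (2, then 1) and recovery (14, then 9). A larger constant shrinks differences at low signal by construction. The root count in heat was also 0 under quantile normalization and after scaling to the 75th percentile, where the cause was not tested. Leaving out each array in turn gave 50 to 56 members and counts of 2 to 3, 4 to 4, 14 to 16, 8 to 10, 2 to 3, 39 to 41, 15 to 17, 0 to 2, 12 to 16, 3 to 5, 21 to 22, 1 to 3 and 11 to 16, in the order of the report's comparisons: shoots and roots at 1 h of recovery, shoots from 1 h of heat onward, roots likewise, the tissues at 3 h, and the interactions in heat and in recovery. The root count in heat was 0 without the first 0.25 h or the first 1 h root array and 2 without the second of either, and the interaction in heat was 1 without the second 0.25 h root array. The replicate block, which fits the replicate number, left counts such as 39 and 16 in shoots as they were and changed no count. Of 57 results for named genes, run under 537 alternatives, 482 kept their call, 55 lost it and 0 reversed.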
